A study of Sus scrofa with 3 samples.

Results

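Somatostatin is a small peptide hormone that holds back the secretion of other hormones and of acid and fluid in the gut. In the intestine it is made by scattered endocrine cells, the D cells, and by neurons. It acts through receptors that couple to Gi proteins, which lower cyclic AMP. Thyrotropin-releasing hormone, another small peptide best known from the brain and pituitary, acts through TRHR, a receptor that couples to Gq proteins and releases calcium inside the cell. The genes described here are the hormone gene SST, the receptor genes SSTR1, SSTR2, SSTR3 and SSTR5, and TRHR. They are 6 of the 6523 genes with a symbol on the array, and 8 of its 13900 named probes. Every array probe that carried 1 of these names, or whose gene number is that of 1 of these genes, was taken. The set was put together because SST and TRHR stood out in these same arrays, so all their differences are given as descriptions, without a test.

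RNA came from PIE cells, a non-transformed line grown from the gut epithelium of a newborn pig that had not yet suckled. The TL2937+ETEC cells were kept for 48 h with Lactobacillus jensenii TL2937, washed, and then given ETEC PAMPs for 12 h. These are molecular patterns of enterotoxigenic Escherichia coli, a bacterium that causes diarrhoea in piglets. The TL2766+ETEC cells had Lactobacillus plantarum TL2766 for 48 h in place of TL2937. The ETEC cells had medium without lactobacilli and the same 12 h of PAMPs. All the cells had first grown for 3 days on collagen, and unchallenged cells were not analysed here. Each group was 1 culture on 1 array. There was therefore no spread between replicates and no test, and the errors given below are those the scanner software attached to a single spot.

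On the TL2937+ETEC, TL2766+ETEC and ETEC arrays, 62.5%, 61.7% and 60.9% of gene spots were well above background by the software's flag. Intensities are given on 1 common scale, after dividing each array by its 75th percentile, and the lowest signal flagged as well above background was 11.6, 11.8 and 12.9 on that scale. Levels of different probes are not set against each other, because probes differ in how strongly they bind. The keratin KRT18 and the adhesion protein EPCAM, which mark epithelium, were not well above background on any array, EPCAM over 18 probes. KRT8 was detected on all 3 arrays but lay at no more than 23.9, near the lowest detected signals. The adhesion protein CDH1 was detected with TL2937+ETEC, at 25.1, and with ETEC, at 17.2, but not with TL2766+ETEC, and the brush-border protein VIL1 with TL2766+ETEC, at 14.2, and with ETEC, at 21.5, but not with TL2937+ETEC. All 6 mesenchymal markers on the array, VIM, ACTA2 and DES among them, were well above background throughout. With 2 epithelial markers undetected and 3 near the detection limit, the 5 read here do not bear out the label of an epithelial line. KRT19 was not found by name, and weak binding of the probes was not told apart from absent message. The identity of the line was not tested. The arrays shared 1 slide, so a group cannot be told apart from its culture or its place on the slide.

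SST was read by 2 probes that had at most 7 bases in a row in common. They are shown because they read different stretches of the message. The first, A_72_P371158, has stop codons in all 3 reading frames, and its last 30 bases hold the hexamer that signals polyadenylation, in capitals. The second, A_72_P077456, lies on the end of the coding sequence, which encodes the part of the precursor that is cut out as the hormone, and its capitals are the stop codon.
SST, last 30 bases of A_72_P371158: gaattgaagactgtaatacaaAATAAAatt
SST, A_72_P077456: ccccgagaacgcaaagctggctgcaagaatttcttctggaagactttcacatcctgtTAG

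SST (gene number 494469) gave a brighter signal in the cells that had met either lactobacillus. Probe A_72_P371158 lay at 107.5 ± 11.2 with TL2937+ETEC and at 149.7 ± 15.3 with TL2766+ETEC, against 23.8 ± 4.78 with ETEC (scaled intensity ± the software's spot error). The signals of the lactobacillus arrays lay far outside the error of the ETEC spot. The difference from ETEC was 4.53-fold for TL2937+ETEC, a log2 difference of 2.18 with a spot error of 0.33, and 6.30-fold for TL2766+ETEC, 2.66 with an error of 0.33.

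The coding probe of SST ran in the same order over the arrays. It lay at 55.7 ± 6.04 with TL2937+ETEC and 81.7 ± 8.52 with TL2766+ETEC, against 23.0 ± 3.50 with ETEC. Its differences from ETEC were smaller than those of the 3′ probe, at 2.42-fold for TL2937+ETEC (log2 1.28, error 0.27) and 3.55-fold for TL2766+ETEC (log2 1.83, error 0.27). Both SST probes were well above background on all 3 arrays.

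Where the SST spots lay among all spots of their arrays shows how bright these spots were. Since probes differ in binding, it does not give the amount of the hormone's message. The 3′ probe stood at percentile 60.7 with TL2937+ETEC and 64.1 with TL2766+ETEC, against 44.3 with ETEC. The coding probe stood at percentiles 53.8 and 57.9 on the lactobacillus arrays, against 44.0. On the ETEC array both SST spots thus lay in the dimmer part of all spots, and their levels of 23.8 and 23.0 were not far above its lowest detected signal of 12.9.

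The size of the SST difference depended on how low signals were handled. Before any background was subtracted, the mean signals of the 3′ spot were 136.7 in TL2937+ETEC and 164.5 in TL2766+ETEC, against 60.0 in ETEC, ratios of 2.28 and 2.74. The local background around that spot was 32, 32 and 30. The spot of the coding probe gave 107.5 and 136.3, against 68.4, over local backgrounds of 36.5, 41 and 45. The normexp correction is a model that keeps low signals above 0, and it was run with a constant of 50 added to every signal. Such a constant by itself shrinks the folds of dim spots, and its part was not told apart from that of the model. With both, the log2 differences of the 3′ probe were 0.80 for TL2937+ETEC and 1.08 for TL2766+ETEC. Those of the coding probe were 0.58 and 0.89. SST was then past 2-fold on the TL2766+ETEC array alone, by its 3′ probe.

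**Figure D1:**
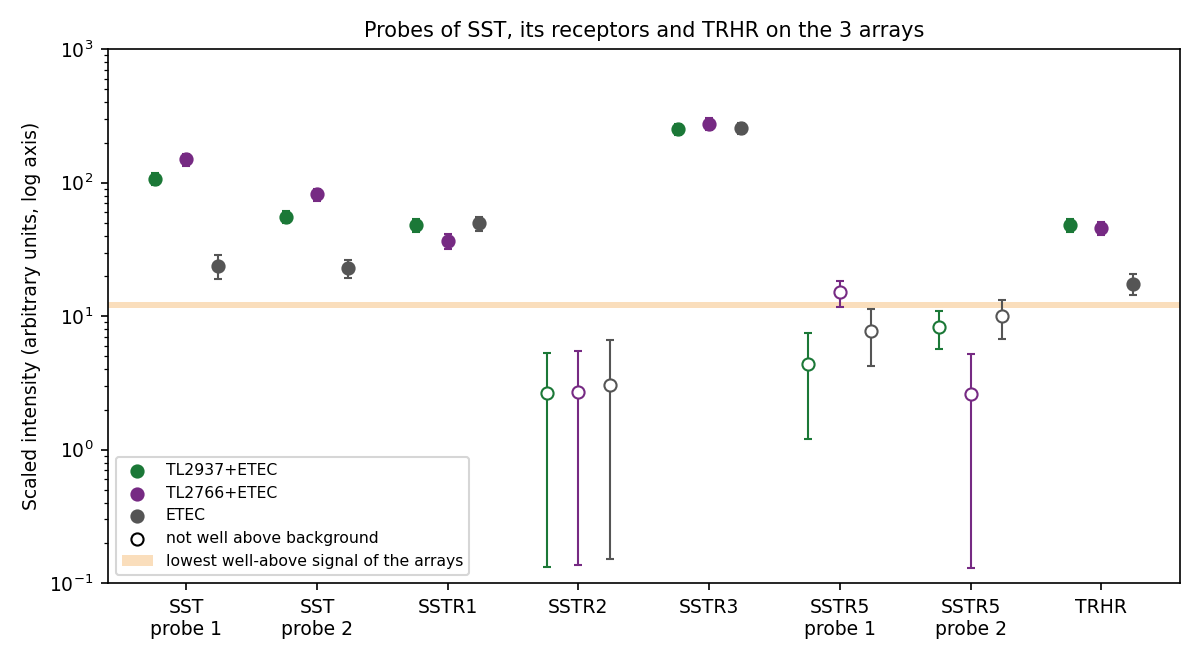
Scaled intensity (arbitrary units, log axis) of the 8 named probes on the TL2937+ETEC, TL2766+ETEC and ETEC arrays, 1 spot each. Bars are the scanner software's spot error, cut short where they would reach 0, open circles are spots not well above background, and the band spans the lowest detected signals of the arrays, 11.6 to 12.9. Both SST probes and TRHR were brighter on both lactobacillus arrays, at 107.5 and 149.7 against 23.8 for SST probe 1 (A_72_P371158), while SSTR1 and SSTR3 stayed within 2-fold and SSTR2 and SSTR5 stayed at background.

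TRHR (gene number 100415777), the receptor for thyrotropin-releasing hormone, had 1 probe, A_72_P186401. It is printed because the TRHR result rests on it alone. Of the 3 reading frames of its 60 bases, 2 hold no stop codon.
TRHR, A_72_P186401: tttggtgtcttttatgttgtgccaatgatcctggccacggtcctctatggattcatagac

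TRHR lay at 48.2 ± 5.36 with TL2937+ETEC and 45.7 ± 5.16 with TL2766+ETEC, against 17.5 ± 3.17 with ETEC. The lactobacillus arrays were alike within the spot error and both were above ETEC. TRHR was 2.75-fold higher with TL2937+ETEC, a log2 difference of 1.46 (error 0.31), and 2.61-fold higher with TL2766+ETEC, 1.39 (error 0.31). The TRHR spot stood at percentiles 52.2 and 51.8 on the lactobacillus arrays, against 40.7 on the ETEC array.

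Like SST, TRHR was dim, and its difference shrank when low signals were handled otherwise. The mean signals before subtraction were 99.4 in TL2937+ETEC and 95.1 in TL2766+ETEC, against 62.4 in ETEC, over local backgrounds of 32.5, 35 and 26. With the normexp correction and its added constant of 50, the log2 differences were 0.33 for TL2937+ETEC and 0.32 for TL2766+ETEC, short of 2-fold in both. The hormone that TRHR binds, TRH, was not found by name among the probes and was not analysed here.

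**Figure D2:**
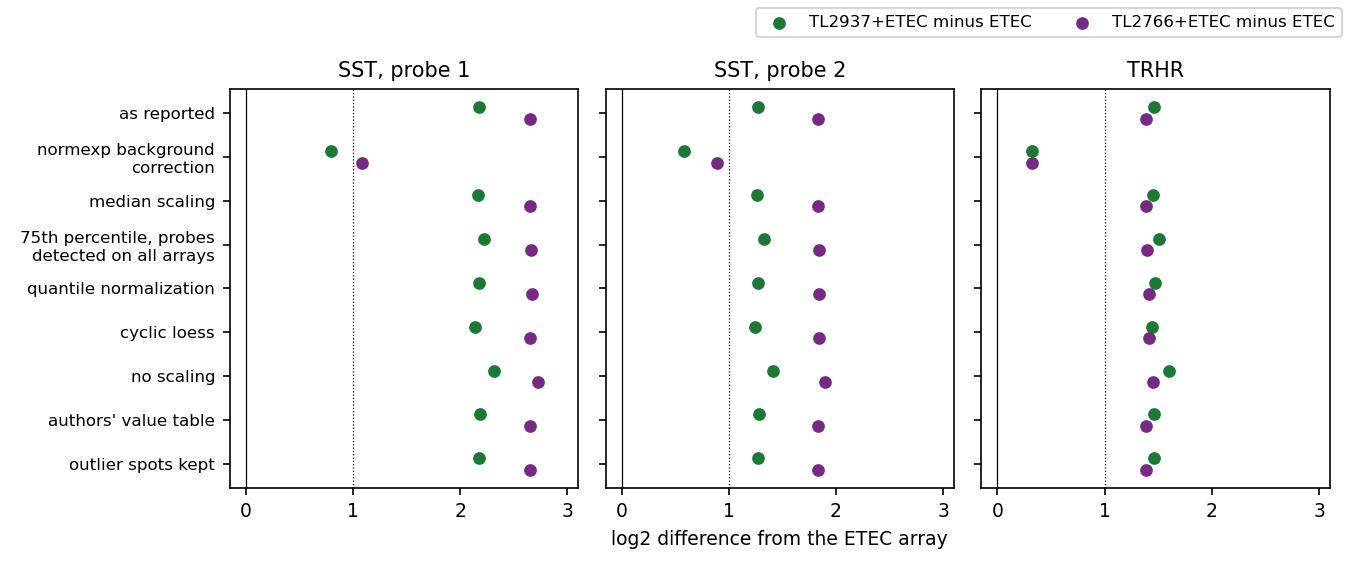
Log2 difference from the ETEC array (horizontal axis) of the 2 SST probes and of TRHR, for TL2937+ETEC and TL2766+ETEC, as reported and under each other way of processing the spots (rows). The dotted line marks 2-fold. All points lie above 0, and all processings except normexp keep the 3 probes past 2-fold. Normexp, with a constant of 50 added to every signal, leaves the 3′ SST probe (probe 1) at 0.80 and 1.08 and TRHR at 0.33 and 0.32.

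Of the somatostatin receptors, 2 were measured well above background, and neither differed by 2-fold. Their probes are shown because each receptor was read by a single named probe.
SSTR1, A_72_P157626: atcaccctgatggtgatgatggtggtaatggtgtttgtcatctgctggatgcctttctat
SSTR3, A_72_P186336: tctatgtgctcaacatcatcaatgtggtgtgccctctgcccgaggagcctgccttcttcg

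SSTR1 (gene number 397004) lay at 48.1 ± 5.57 with TL2937+ETEC and 36.8 ± 4.77 with TL2766+ETEC, against 49.5 ± 5.93 with ETEC. TL2937+ETEC and ETEC were alike within the spot error. TL2766+ETEC was the dimmest of the 3. Its log2 difference from ETEC was -0.43 (error 0.25), and that of TL2937+ETEC was -0.041 (error 0.24), which changed sign under other processings, between -0.073 and 0.092. A probe of another transcript, which the array describes as partly homologous to human SSTR1 and does not name as that gene, was well above background on the ETEC array alone. Set against the lowest detected signal of the dimmer array, it was at least 1.36-fold lower with TL2937+ETEC and at least 1.33-fold lower with TL2766+ETEC.

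SSTR3 (gene number 396643) differed little from ETEC on either lactobacillus array. It lay at 252 ± 25.4 with TL2937+ETEC and 277 ± 27.9 with TL2766+ETEC, against 256 ± 25.9 with ETEC. All 3 values lay within 1 spot error of each other. The log2 differences from ETEC were -0.022 for TL2937+ETEC, of either sign under other processings, and 0.11 for TL2766+ETEC, both with an error of 0.21. A further probe, described on the array as partly like a fish type 3 receptor and not named as SSTR3, gave -0.21 and 0.026.

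SSTR2 (gene number 497059) and SSTR5 (gene number 396642) were not well above background on any array. The SSTR2 probe gave 2.65, 2.73 and 3.05 on the TL2937+ETEC, TL2766+ETEC and ETEC arrays, about as large as its spot error, and no fold is given. The 2 SSTR5 probes have 55 bases in a row in common, yet the array that was brightest for one was dimmest for the other. One, A_72_P303314, gave 4.36 with TL2937+ETEC and 15.1 with TL2766+ETEC, against 7.79 with ETEC, and the other, A_72_P157621, gave 8.34 and 2.61, against 10.0. Signals this low do not order the groups. A probe that the array describes as SSTR4, the remaining receptor of the family, was at background too, at 4.74, 5.64 and 4.26. Cortistatin, a peptide that binds the same receptors, was not found by name.

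Between the lactobacilli, no gene of the group differed by 2-fold. SST was dimmer in TL2937+ETEC than in TL2766+ETEC by both probes, by a log2 difference of -0.48 (error 0.21) for the 3′ probe and -0.55 (error 0.22) for the coding probe. Both probes kept this order under all 8 other processings of the spots, with differences between -0.51 and -0.29 for the 3′ probe and between -0.60 and -0.31 for the coding probe. Over 27 probes printed in 5 spots each, the standard deviation of this log2 difference among spots had a median of 0.087 and reached 0.52. That spread is between spots and not between cultures, and the SST probes had no repeat spots. It is therefore no measure of the SST difference between the cultures. TRHR differed by 0.076 (error 0.23) and SSTR3 by -0.13 (error 0.21), both within the spot error, and SSTR1 by 0.39 (error 0.25).

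Among the genes with a symbol, each read by its brightest probe, SST held the first place in both comparisons with ETEC. With TL2937+ETEC, 12 of 4975 measured genes were at least 2-fold higher than with ETEC (0.241%) and 7 at least 2-fold lower (0.141%). Of the 4 measured genes of the group, 2 were among the higher ones, SST and TRHR. SST ranked 1 and TRHR ranked 5 from the highest. For TL2766+ETEC, 16 of 4950 genes reached 2-fold upward (0.323%) and 12 downward (0.242%), and those upward again held SST, ranked 1, and TRHR, ranked 6. SST and TRHR were picked from these comparisons, so the ranks describe that choice. Between the lactobacillus arrays, 14 of 4991 genes differed at least 2-fold (0.281%), and none of the 4 was among them. Counting single probes, named or not, the 3′ probe of SST ranked 2 of 25803 measured probes for TL2937+ETEC and 1 of 25617 for TL2766+ETEC. The coding probe ranked 28 and 5.

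The ranks also moved with the normexp correction and its added constant. With normexp, SST ranked 9 of 4970 genes for TL2937+ETEC and 4 of 4945 for TL2766+ETEC, and TRHR ranked 99 and 113. Both comparisons use the same ETEC array, so they are not independent of each other. Within the direct comparison of the lactobacillus arrays, which does without the ETEC array, SST ranked 4876 of 4991 from the highest and TRHR 847.

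**Figure D3:**
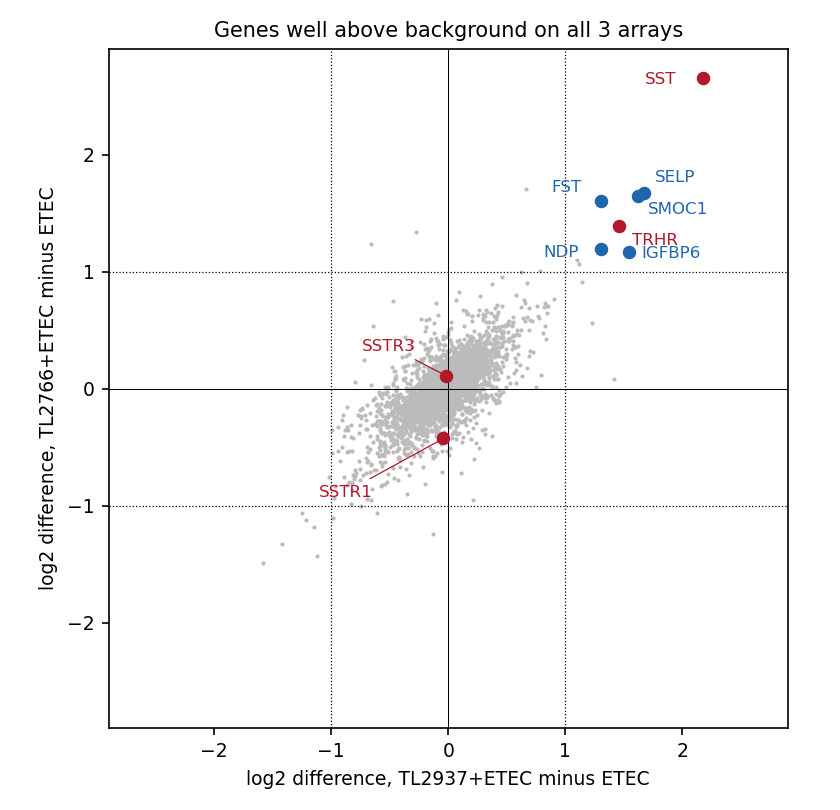
Log2 difference from ETEC of each gene well above background on all 3 arrays, for TL2937+ETEC (horizontal axis) and TL2766+ETEC (vertical axis). Both axes share the ETEC array, so points tend to the diagonal, and dotted lines mark 2-fold. SST lies farthest out at 2.18 and 2.66, and TRHR at 1.46 and 1.39 lies among the genes nearest in pattern (blue). SSTR3 lies near the centre. SSTR1 lies below it at -0.041 and -0.43, the latter ranked 172 from the lowest of 4950 genes measured for TL2766+ETEC against ETEC.

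Among the 4922 genes well above background on all 3 arrays, those whose pair of log2 differences lay nearest to that of SST were still some way off. SELP, which encodes the adhesion molecule P-selectin, was nearest at a distance of 1.10, with log2 differences of 1.68 for TL2937+ETEC and 1.67 for TL2766+ETEC. The matrix protein gene SMOC1 followed at a distance of 1.15, the activin-binding follistatin gene FST at 1.36, TRHR itself at 1.46 and IGFBP6, which encodes a binding protein of insulin-like growth factors, at 1.62. The genes nearest to TRHR lay closer. They were IGFBP6 at 0.23, the Wnt-activating ligand gene NDP at 0.25, FST at 0.27, SMOC1 at 0.31 and SELP at 0.36. FST differed in the same direction by both its probes, while 1 of the 3 IGFBP6 probes gave -0.045 for TL2937+ETEC and 0.038 for TL2766+ETEC. The likeness rests on 2 differences that share an array.

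Of 16 hormone genes of gut endocrine cells, 7 were measured on both arrays, and SST was the 1 of these that reached 2-fold. GAL, the galanin gene, detected on the lactobacillus arrays alone, was higher too and is given as a bound. For TL2937+ETEC, SST and GAST were higher by at least 1.2-fold, 1 was lower by as much and 4 lay within 1.2-fold, with a median log2 difference of -0.14. Over all genes, 7.24% were higher by at least 1.2-fold, 12.4% were lower by as much, 80.4% lay within 1.2-fold and the median was -0.040. For TL2766+ETEC, SST alone was higher by at least 1.2-fold and 6 lay within 1.2-fold, with a median of 0.045. Over all genes, 8.10% were higher by as much, 8.91% were lower, 4108 of 4950 lay within 1.2-fold and the median was 0.0015. The counts of the gene lists below stand beside these shares, and a list near them is not set apart from other genes.

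The gastrin gene GAST, whose product drives acid secretion, had log2 differences of 0.58 for TL2937+ETEC and 0.045 for TL2766+ETEC, but its other probe gave -0.45 and -0.11. NPY, neuropeptide Y, had -0.34 and -0.26. CCK, which encodes the hormone that empties the gall bladder, had -0.011 and 0.18. The neuropeptide galanin gene GAL was well above background on the lactobacillus arrays only, at 27.6 and 19.6 against 12.1, and was thus at least 2.15-fold higher with TL2937+ETEC and at least 1.53-fold higher with TL2766+ETEC.

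Of 11 processing and granule genes of peptide hormones on the array, 6 were measured, and none reached 2-fold. Over all genes 0.241% were at least 2-fold higher for TL2937+ETEC and 0.323% for TL2766+ETEC. None was at least 1.2-fold higher and 2 were at least 1.2-fold lower with TL2937+ETEC, while 1 was higher and 2 were lower with TL2766+ETEC, where all genes gave 7.24% higher and 12.4% lower, and 8.10% and 8.91%. The medians were -0.068 and 0.0042. SCG2, a protein of secretory granules, lay at 105.6 and 132 on the lactobacillus arrays against 193 on the ETEC array, log2 differences of -0.87 and -0.54, and its other probe ran the same way. PAM, the enzyme that amidates peptide hormones, had -0.35 and -0.30. CHGB, chromogranin B, had 0.13 and 0.27, with other probes down to -0.45 and -0.31, and the convertase gene FURIN had 0.035 and 0.086.

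Markers of endocrine cells are given beside SST, since these make it in the gut. Of 8 enteroendocrine markers on the array, 3 (CHGB, SCG2 and CHGA, the last by 1 of its 3 probes) were well above background on each array. SCG3, SCG5, the convertases PCSK1 and PCSK2, and the transcription factor NEUROD1 were not, on any. The summed level of the 8 was 58279 with TL2937+ETEC and 62282 with TL2766+ETEC, against 61061 with ETEC. This sum was almost wholly the signal of the 1 detected CHGA probe, so it does not describe the 8 as a set. SCG2, given above, was lower on both lactobacillus arrays. GFAP, a marker of glia, was at least 2.38-fold lower with TL2937+ETEC and 2.13-fold higher with TL2766+ETEC, and its other probe gave log2 differences of -0.37 and -0.68. The leukocyte marker PTPRC was not well above background on any array. The 5 epithelial markers summed to 67.5 and 62.2, against 74.7, and the 6 mesenchymal ones to 286930 and 302085, against 308110. The part of other cell types in the SST and TRHR differences was not tested. In bulk RNA, a change in the number of cells that make a hormone cannot be told apart from a change in the RNA per cell.

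Of 8 transcription factors of somatostatin-producing cells on the array, 6 were measured for TL2937+ETEC, with 1 at least 1.2-fold higher and 5 within 1.2-fold, and 5 for TL2766+ETEC, all within 1.2-fold. Over all genes 3999 of 4975 (80.4%) and 4108 of 4950 lay within 1.2-fold. The medians were -0.027 and -0.077. PDX1, an activator of the SST promoter, had log2 differences of -0.23 and -0.11. CREB1, which carries the cyclic AMP signal to that promoter, had -0.26 and -0.19. PAX6 had 0.18 with TL2937+ETEC and was at least 1.45-fold lower with TL2766+ETEC.

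SST is itself a classical gene of the cyclic AMP response. None of the other measured genes of that kind was past 2-fold, which for so few genes is near the share of all genes. Of the 16 genes listed, 10 were on the array, and NR4A1, PER1, SIK1, DUSP1, CRTC2 and CRTC3 were not found by name. A cyclic AMP response was not tested. Of 9 measured, with SST among them, 3 were higher by at least 1.2-fold, 1 was lower and 5 lay within 1.2-fold for TL2937+ETEC. For TL2766+ETEC 1 was higher, 1 was lower and 7 lay within 1.2-fold. The lower gene was SCG2 in both, whose values are given above. Over all genes, 7.24% were higher and 12.4% lower by at least 1.2-fold for TL2937+ETEC, and 8.10% and 8.91% for TL2766+ETEC. At least 2-fold higher were 0.241% and 0.323%. The medians were -0.084 and 0.16. The phosphodiesterase gene PDE4D, which is induced by and then breaks down cyclic AMP, had log2 differences of 0.30 and 0.18, and its relative PDE4B had 0.29 and 0.19, with another probe at -0.29 and -0.17.

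The signalling genes behind the receptors were counted in the same way, where 3999 of 4975 genes in all (80.4%) lay within 1.2-fold for TL2937+ETEC and 4108 of 4950 for TL2766+ETEC. Among 12 measured genes of Gi signalling, through which somatostatin receptors act, 11 were within 1.2-fold and 1 was lower for TL2937+ETEC, and 10 were within 1.2-fold and 2 were lower for TL2766+ETEC. The medians were -0.070 and -0.063. The phosphatase gene PTPN6, which somatostatin receptors recruit, had -0.39 and -0.30. The adenylyl cyclase gene ADCY5 had 0.031 and -0.39, the potassium channel gene KCNJ5 0.24 and 0.14, and the Gi subunit gene GNAI3 -0.074 and 0.23.

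Among 14 measured genes of Gq signalling, the route used by TRHR, 1 was higher by at least 1.2-fold, 3 were lower and 10 lay within 1.2-fold for TL2937+ETEC. For TL2766+ETEC 1 was lower and 13 were within 1.2-fold. The medians were -0.034 and 0.063. ITPR1, the receptor that releases calcium from stores, lay at 204 and 213 on the lactobacillus arrays against 329 on the ETEC array, log2 differences of -0.69 and -0.63. RGS4, a brake on Gq and Gi proteins, lay at 843 and 1232 against 1301, differences of -0.63 and -0.078. CAMK2D, a calcium-dependent kinase gene, had -0.44 and -0.19, and the protein kinase C gene PRKCB had 0.28 and 0.12.

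Most other receptors for peptide hormones were at background. Of 18 on the array, 5 were measured on both arrays in each comparison with ETEC. Over all 6523 genes, 4975 were measured on both arrays for TL2937+ETEC and 4950 for TL2766+ETEC. The receptors measured on neither array numbered 13 and 12. None of the 5 receptors measured in each differed by 2-fold, and the medians were -0.067 and 0.14. Over all genes, 0.241% were at least 2-fold higher and 0.141% lower for TL2937+ETEC, and 0.323% and 0.242% for TL2766+ETEC. None among 5 is thus near the share of all genes. The oxytocin receptor gene OXTR lay at 100.2 with TL2937+ETEC and 149 with TL2766+ETEC, against 167 with ETEC, log2 differences of -0.74 and -0.17. The opioid receptor gene OPRM1 had -0.067 and 0.38, the corticotropin-releasing hormone receptor gene CRHR1 -0.16 and 0.24, and OPRD1 0.00078 and 0.14.

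**Figure D4:**
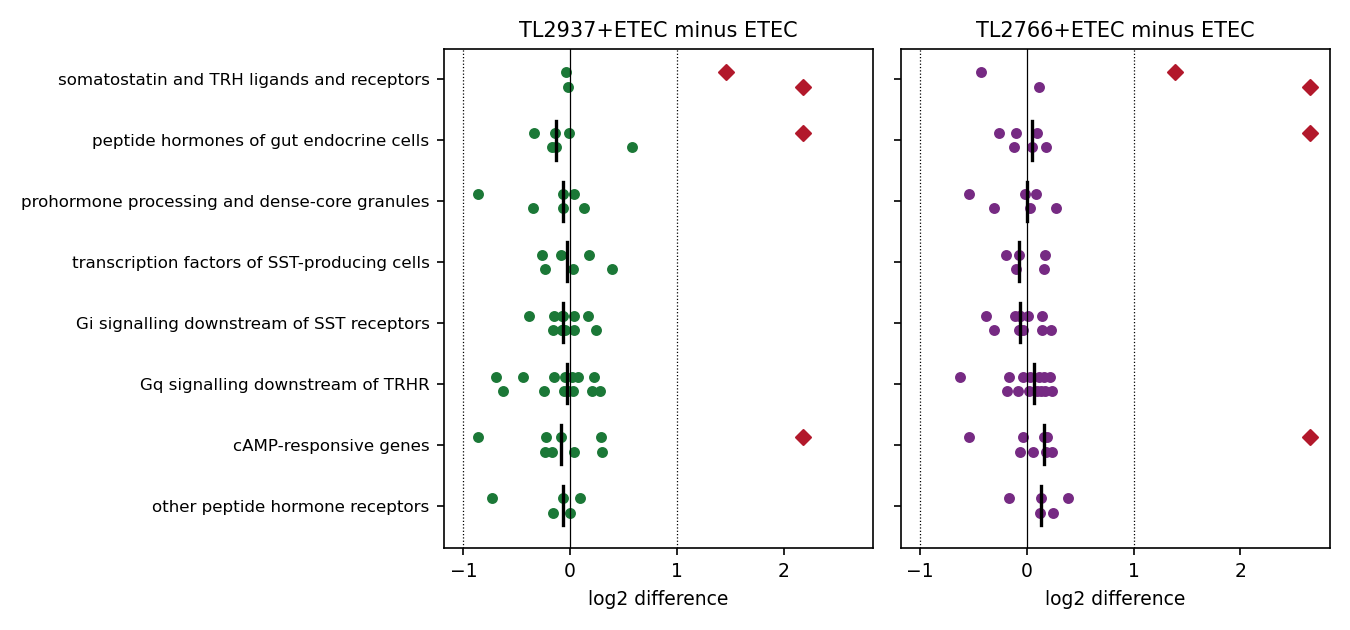
Log2 difference from ETEC (horizontal axis) of each gene measured on both arrays, by gene list (rows), for TL2937+ETEC (left) and TL2766+ETEC (right). Points are genes, black bars list medians (none for the top row, whose genes were chosen), red diamonds SST and TRHR, and dotted lines 2-fold. SST (2.18 and 2.66) and TRHR (1.46 and 1.39) are the points past 2-fold, and the others cluster about 0.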

How the data were processed

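RNA of 3 PIE cultures (TL2937+ETEC, TL2766+ETEC and ETEC, grouped by the labels) was read on 1-colour Agilent porcine arrays, from 200 ng of RNA each per the labels' protocols. The processed intensity of a spot came from the authors' run of Feature Extraction 10.7.3.1 per the file headers, which subtracted a fitted background and put no arrays on a common scale. The authors' value table held the same intensity, rounded, on a linear scale (largest difference 0.492%, 0.496% and 0.496% on these arrays, medians 37.7, 35.7 and 34.1). The headers name no genome build, so no positions are given.

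From the deposited intensity, log2 values were taken and each array's 75th percentile (503, 481 and 459) was subtracted. Scaled intensities are these values made linear and multiplied by 481. Control spots and outlier spots (9, 4 and 8) were left out, and 0 spots were saturated. The brightest probe of a gene, by mean log2 value, stood for it, and probes were named through the array and a RefSeq table of assembly Sscrofa11.1. Calls needed 2-fold and a signal well above background on both arrays. A gene detected on 1 array was given a bound against the higher of its dim signal and the lowest detected signal. The software's spot errors of 2 spots were combined into an error of their log2 difference, which covers neither labelling nor cultures.

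The members and the 8 gene lists and 5 marker lists were chosen with earlier results of these data known. From each list up to 4 genes with the largest difference in either comparison with ETEC were named, plus bounds of at least 2-fold, and for SST and TRHR the 5 genes nearest by Euclidean distance. Some genes and markers that fall under this rule are left out of the text. Sequences are those of the array's probes. Alternatives were a normexp background correction (limma 3.58.1, R 4.3.3) with a constant of 50 added to every signal. Further ones were other scalings, filters, thresholds and probe rules, the authors' table and outlier spots kept. The rest was done in Python 3.11.15 with pandas 2.3.3, numpy 2.4.6 and matplotlib 3.10.9. The steps were tested on simulated data with equal noise for all spots and none between cultures. For TL2937+ETEC against ETEC (4971 genes), the calls held 50 of 50 genes changed 3-fold and 24 of 50 changed 2-fold. They held 0 of the 4775 genes left as they were, a count fixed by simulated noise that was small against the 2-fold cut. The simulation thus checks the steps. It does not measure how often dim spots such as those of SST and TRHR are called wrongly.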

Additional observations from a re-analysis of the deposited data

How the results depend on the processing

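Of 162 log2 differences of the 6 genes recomputed under 9 alternatives, 152 moved by less than the spot error and 10 by more, and no difference past 2-fold changed sign. Part of the 152 could hardly move. SSTR2 and SSTR5 were at background, with errors between 0.73 and 2.22, and the authors' table held the same intensity, rounded. The normexp background correction, with its added constant of 50, gave 0.80 (TL2937+ETEC against ETEC) and 1.08 (TL2766+ETEC against ETEC) for SST and 0.33 and 0.32 for TRHR. The mean of all probes gave 1.73 and 2.24 for SST. The remaining changes were those of SSTR5, which was at background. The counts of genes at least 2-fold different (19 for TL2937+ETEC against ETEC, 28 for TL2766+ETEC against ETEC and 14 for TL2937+ETEC against TL2766+ETEC) became 7, 7 and 1 with normexp (5 of 7, or 71.4%, higher in the first and in the second), 183, 220 and 195 with a weaker background flag, 341, 426 and 374 without a background filter, 6, 6 and 0 above the median signal of detected probes, 164, 144 and 68 at 1.5-fold and 4, 6 and 2 at 3-fold. The mean of all probes gave 26 in the last comparison. For the counts the causes were not tested, apart from the stricter and looser thresholds and filters, which by construction admit fewer or more genes.

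Without scaling, the median of all genes moved to 0.094 for TL2937+ETEC against ETEC, in place of -0.040, and higher calls made up 72.2% (13 of 18) in place of 63.2% (12 of 19). For TL2766+ETEC against ETEC they made up 69.2% (18 of 26) in place of 57.1% (16 of 28). Other choices turned the balance of TL2937+ETEC against ETEC the other way: higher calls were 42.9% with the mean of all probes (9 higher, 12 lower), 32.3% at 1.5-fold (53 and 111), 39.3% without a background filter (134 and 207) and 41.0% with the weaker flag (75 and 108). For TL2766+ETEC against ETEC these settings gave 53.3% (16 and 14), 48.6% (70 and 74), 35.9% (153 and 273) and 39.5% (87 and 133). Over all alternatives the medians of the 7 lists, those of the hormone and signalling genes, lay between -0.16 and 0.11 for TL2937+ETEC against ETEC and between -0.35 and 0.23 for TL2766+ETEC against ETEC, and 6 and 4 of them took both signs.

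No paired analysis was possible because each group had 1 array, and no block on the slide was possible because all arrays lay on 1 slide. Leaving out a replicate was not possible for the same reason. SST and TRHR were dim on the ETEC array, where signal over background limits their folds, and only further cultures would measure the spread between cultures.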
